A study of Mus musculus with 14 samples.

Results

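The 4 follistatin libraries of days 7 and 14 were compared with the 3 control libraries of the same days, 7 of the 14 libraries of the series. They hold poly(A) RNA of the tibialis anterior, the large muscle at the front of the shin, from C57Bl/6 mice. At day 7 there were 2 control and 2 follistatin libraries, and at day 14 there were 1 control and 2 follistatin libraries. The labels give the treatment only as control or follistatin and the day, and the headers of the authors' tables name the arms MCS and FST. The route of follistatin, the treatment of the controls, the age and sex of the mice and whether replicates came from separate animals are not given in the sources used here. All p-values therefore measure the spread between these libraries, which may be technical. With a single control at day 14, day 14 effects rest on 1 control muscle.

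Secreted follistatin captures activins and myostatin and so keeps these ligands from their receptors. Those ligands act through type II and type I activin receptors and the transcription factors Smad2, Smad3 and Smad4, and they hold muscle mass down. In muscle, loss of this signal is known to go with larger fibres, more protein synthesis through the Akt and mTOR kinases, and less protein breakdown by ubiquitin ligases.

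Values are the authors' deposited FPKM, which are fragments divided by transcript length and by the number of fragments mapped in the library. Where a gene has a pair of ranges, the first is that of the 3 controls and the second that of the 4 follistatin libraries. The read depth is unknown, and relative to control day 7 replicate 2 it was 0.859 to 1.28 in these libraries. Genes with a value above 0 numbered 16158 in control day 7 replicate 1 and 19383 to 20283 in each of the other 6. For 31 genes the authors' table states that there were too many fragments to estimate (status HIDATA), and these were left out. Of the 31, 8 were listed at 0 in all 7 libraries, among them the fast myosin genes Myh1 and Myh4 and the skeletal actin gene Acta1. A further 10, among them Ckm, Pvalb and Ttn, were listed at 0 in every follistatin library and not in the controls. The labelled tissue could thus be checked on only 2 of 12 fibre markers. The intermediate filament gene Des lay at 792 to 866 FPKM in the controls and 778 to 1307 FPKM with follistatin, and the myoglobin gene Mb is described with the genes that fell.

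Of 11047 genes whose mean reached 1 FPKM, 608 (5.5%) differed between follistatin and control at a Benjamini-Hochberg adjusted p under 0.05 by limma on log2(FPKM + 1). They were 247 higher genes (2.24%) and 361 lower genes (3.27%), and 156 of them differed by at least 1 on the log2 scale. An unadjusted p under 0.05 in this limma fit was reached by 3124 of the 11047 genes. List counts at that level are to be read beside this number. The median log2 fold change over all tested genes was -0.09, at day 7 -0.08 and at day 14 -0.08. The split between higher and lower genes turned with the scaling: after rescaling by the median ratio 628 genes were called, 389 higher and 239 lower, and after quantile normalization 740, 414 higher and 326 lower. The main fit had no term for day. With day as a covariate 485 genes were called, and 424 of these were among the 608. In all 608 called genes the 4 follistatin and 3 control libraries did not overlap, and this was so in 30.4% of all tested genes. The authors' deposited table called 2259 of its 12664 tested genes (17.8%). Of the 10844 genes in both tests, 608 were called by limma and 2002 in the authors' deposited table. Of these, 563 were called in both, which is 92.6% of the limma calls and 28.1% of the authors' calls in their deposited table, and all 563 had the same direction.

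The number of calls rested on single libraries. Without control day 7 replicate 1 it was 43, without control day 14 replicate 1 it was 62 and without control day 7 replicate 2 it was 145. Without follistatin day 14 replicate 1 it was 251, without follistatin day 7 replicate 2 it was 405, without follistatin day 14 replicate 2 it was 480 and without follistatin day 7 replicate 1 it was 907. Of the 82 called genes named by rule here, 22 remained called without each of the 7 libraries in turn, and none changed direction. For the other 60, a call made here was lost without at least 1 library, and in all 60 control day 7 replicate 1 was such a library (adjusted p = 0.0564 to 0.213 without it).

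With each day tested on its own, in 1 fit of all 4 groups, 24 genes (0.217%) were called at day 7 and 56 (0.507%) at day 14. The plot of day 7 against day 14 shows the effect of each gene at both days.

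**Figure D1:**
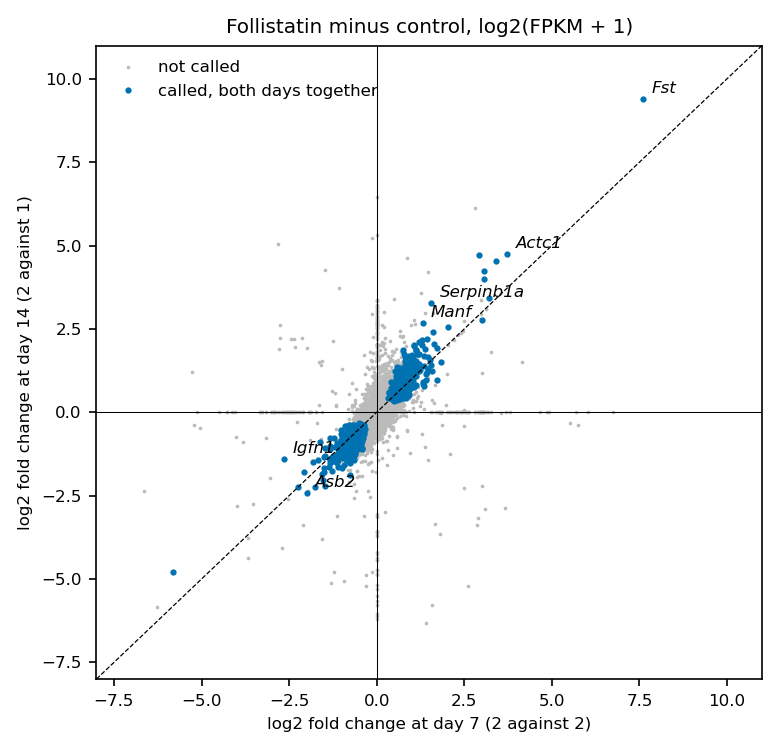
Log2 fold change of each of the 11047 tested genes at day 7 (x axis, 2 follistatin against 2 control libraries) and at day 14 (y axis, 2 against 1), on log2(FPKM + 1). Blue points are the 608 genes called over both days together, grey points the others, and the dashed line marks equal effects. Fst lies at the far upper right, and the grey points along both axes are mostly small RNA genes that were listed at 0 in the libraries of 1 day.

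Fst, the follistatin gene (chromosome 13, 114452290 to 114458951, minus strand, GRCm38), lay at 0.808 and 1.17 FPKM in the day 7 controls, 1.04 in the day 14 control, 367 and 407 in the day 7 follistatin libraries and 1315 and 1421 in those of day 14. The day 14 follistatin libraries were the highest and no follistatin library came near a control. Fst rose by 8.51 on the log2 scale (SE 0.51, adjusted p = 0.000841), by 7.61 at day 7 and 9.39 at day 14. The exact two-sided permutation p was 0.0286, the smallest that 35 splits of 7 libraries can give. The RNA of the muscle's own gene and RNA supplied by the treatment cannot be told apart.

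The largest rises after Fst were those of an elongation factor-like gene, genes of the sarcomere and a receptor gene. Tceal7, of the family of transcription elongation factor A-like proteins, lay at 19.0 and 21.5 FPKM in the day 7 controls, 18.7 in the day 14 control, 162 and 311 in the day 7 follistatin libraries and 393 and 533 in those of day 14. Every follistatin library lay above every control, and those of day 14 above those of day 7 (log2 difference 3.96, SE 0.36, adjusted p = 0.00286). Actc1, the cardiac alpha-actin that skeletal muscle makes mainly before birth and in regrowth (chromosome 2, 114047282 to 114053548, minus strand, GRCm38), lay at 359 and 578 FPKM in the day 7 controls, 74.6 in the day 14 control, 5939 and 6161 in the day 7 follistatin libraries and 2122 and 1933 in those of day 14. The day 7 libraries of both arms held more Actc1 than those of day 14, and the log2 fold change was 3.73 at day 7 and 4.74 at day 14 (log2 difference 3.80, SE 0.73, adjusted p = 0.0315 over both days). Actc1 lost its call without control day 7 replicate 1, control day 14 replicate 1, follistatin day 7 replicate 2 or follistatin day 14 replicate 1 (adjusted p up to 0.119).

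Mybph, which codes for a myosin-binding protein of the thick filament (chromosome 1, 134193448 to 134201232, plus strand), lay at 20.4 and 30.9 FPKM in the day 7 controls, 10.8 in the day 14 control, 196 and 238 in the day 7 follistatin libraries and 234 and 210.2 in those of day 14. The 4 follistatin libraries were close together and the day 14 control was the lowest (log2 difference 3.45, SE 0.30, adjusted p = 0.00261). Adora1, the adenosine A1 receptor gene (chromosome 1, 134199223 to 134235431, minus strand), lay at 2.45 and 3.44 FPKM in the day 7 controls, 1.395 in the day 14 control, 32.6 and 30.5 in the day 7 follistatin libraries and 33.2 and 41.5 in those of day 14. Again the follistatin libraries were close together (log2 difference 3.41, SE 0.21, adjusted p = 0.000841). Adora1 and Mybph share 1162 exon bases on opposite strands. The strand setting of the counting is not given in the sources used here, so reads of one can have been counted for the other. Tceal7 likewise shares 223 exon bases with Bex1 on the opposite strand. Tceal7, Mybph and Adora1 remained called without each library in turn.

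Tceal5, another gene of the Tceal family, was even between days: 8.68 and 10.3 against 39.9 and 44.4 FPKM at day 7, and 8.25 against 48.2 and 58.7 FPKM at day 14 (log2 difference 2.27, SE 0.15, adjusted p = 0.00103). Serpinb1a, an inhibitor of leukocyte elastase, lay higher at day 14 than at day 7 of follistatin: 1.83 and 3.33 against 6.79 and 12.7 FPKM at day 7, and 1.92 against 23.8 and 31.1 FPKM at day 14 (log2 difference 2.37, SE 0.46, adjusted p = 0.0311). The calmodulin-like gene Calml4 lay at 1.75 and 1.59 against 6.897 and 7.54 FPKM at day 7, and 1.41 against 10.1 and 13.9 FPKM at day 14 (log2 difference 1.99, SE 0.21, adjusted p = 0.00576). Cited4, a partner of the co-activators CBP and p300, lay at 5.83 to 8.17 FPKM in controls and 21.9 to 33.9 FPKM with follistatin (log2 difference 1.82, SE 0.17, adjusted p = 0.00365). Gamt, the enzyme of the last step of creatine synthesis, lay at 8.56 to 11.9 and 29.1 to 42.6 FPKM (log2 difference 1.79, SE 0.17, adjusted p = 0.00391). The authors' deposited Cuffdiff test did not call Gamt (q = 0.511). In these 5 genes no follistatin library reached down to a control, which was a condition for being among the 12 largest rises. Manf and Hspb8, the other 2 of the 12 largest rises, are described with the chaperones. Serpinb1a lost its call without any control library or without follistatin day 7 replicate 2 or follistatin day 14 replicate 1 (adjusted p = 0.0509 to 0.149).

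The largest falls were those of a ubiquitin ligase subunit, myoglobin and genes of the sarcomere and membrane. Asb2, a substrate receptor of Cullin-5 ubiquitin ligases (chromosome 12, 103321142 to 103356001, minus strand, GRCm38), lay at 165 and 188 FPKM in the day 7 controls, 198 in the day 14 control, 53.4 and 35.01 in the day 7 follistatin libraries and 43.0 and 30.6 in those of day 14. All follistatin libraries lay far below the lowest control (log2 difference -2.18, SE 0.19, adjusted p = 0.00266), and the effect was -2.001 at day 7 and -2.42 at day 14. Mb, the gene of the oxygen-binding protein myoglobin (chromosome 15, 77015487 to 77050670, minus strand, GRCm38), lay at 4294 and 3013 FPKM in the day 7 controls, 3087 in the day 14 control, 1406 and 803 in the day 7 follistatin libraries and 525 and 811 in those of day 14. All 4 follistatin libraries were far below all 3 controls (log2 difference -2.04, SE 0.31, adjusted p = 0.0148), and without control day 7 replicate 1 or control day 14 replicate 1 the call was lost. Mb shares 412 exon bases with an antisense gene, Gm49540.

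Igfn1, an immunoglobulin and fibronectin domain protein of the Z-disc, lay at 13.8 and 8.65 FPKM in the day 7 controls, 3.07 in the day 14 control, 1.24 and 0.656 in the day 7 follistatin libraries and 0.409 and 0.654 in those of day 14. Its controls spread widely, with the day 14 control the lowest (log2 difference -2.28, SE 0.40, adjusted p = 0.0237), and the call was lost without control day 7 replicate 1, control day 7 replicate 2 or follistatin day 14 replicate 1. Mss51, a mitochondrial protein of skeletal muscle, lay at 6.495 and 5.84 against 0.615 and 0.412 FPKM at day 7, and 13.4 against 0.986 and 3.75 FPKM at day 14. Mss51 fell by 2.07 on the log2 scale (SE 0.44, adjusted p = 0.0405), and it was called in only 1 of the 7 fits without a library. Prima1, the membrane anchor of acetylcholinesterase, lay at 3.495 and 3.59 against 0.259 and 0.318 FPKM at day 7, and 3.05 against 0.456 and 0.433 FPKM at day 14. The follistatin libraries were all under 0.5 FPKM, where the added 1 makes a log2 change smaller than the ratio of the means (log2 difference -1.68, SE 0.13, adjusted p = 0.00155). Srebf1, a transcription factor of lipid synthesis, lay at 11.6 and 13.6 against 3.704 and 3.64 FPKM at day 7, and 19.9 against 4.14 and 4.15 FPKM at day 14. Its follistatin libraries were nearly level (log2 difference -1.68, SE 0.17, adjusted p = 0.00444). Prima1 and Srebf1 remained called without each library in turn.

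The other large falls were of like size at both days. Nos1, the neuronal nitric oxide synthase that binds the dystrophin complex, lay at 22.4 and 17.1 against 4.900 and 7.29 FPKM at day 7, and 16.2 against 5.34 and 2.59 FPKM at day 14 (log2 difference -1.75, SE 0.27, adjusted p = 0.0156). Tbc1d1, a regulator of glucose transporter traffic, lay at 25.0 to 39.0 FPKM in controls and 7.48 to 11.1 FPKM with follistatin (log2 difference -1.64, SE 0.18, adjusted p = 0.00576). Lmod2, a leiomodin that sets thin filament length, lay at 41.5 to 56.97 and 11.9 to 18.0 FPKM (log2 difference -1.62, SE 0.17, adjusted p = 0.00576). Tmem100, a membrane protein gene, lay at 7.55 to 13.1 and 0.781 to 2.399 FPKM (log2 difference -2.01, SE 0.25, adjusted p = 0.00941). In all 4 genes the arms did not overlap, which was a condition for being among the largest falls. Tbc1d1, Lmod2 and Tmem100 remained called without each library in turn, while Nos1 lost its call without any 1 of the 3 controls.

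**Figure D2:**
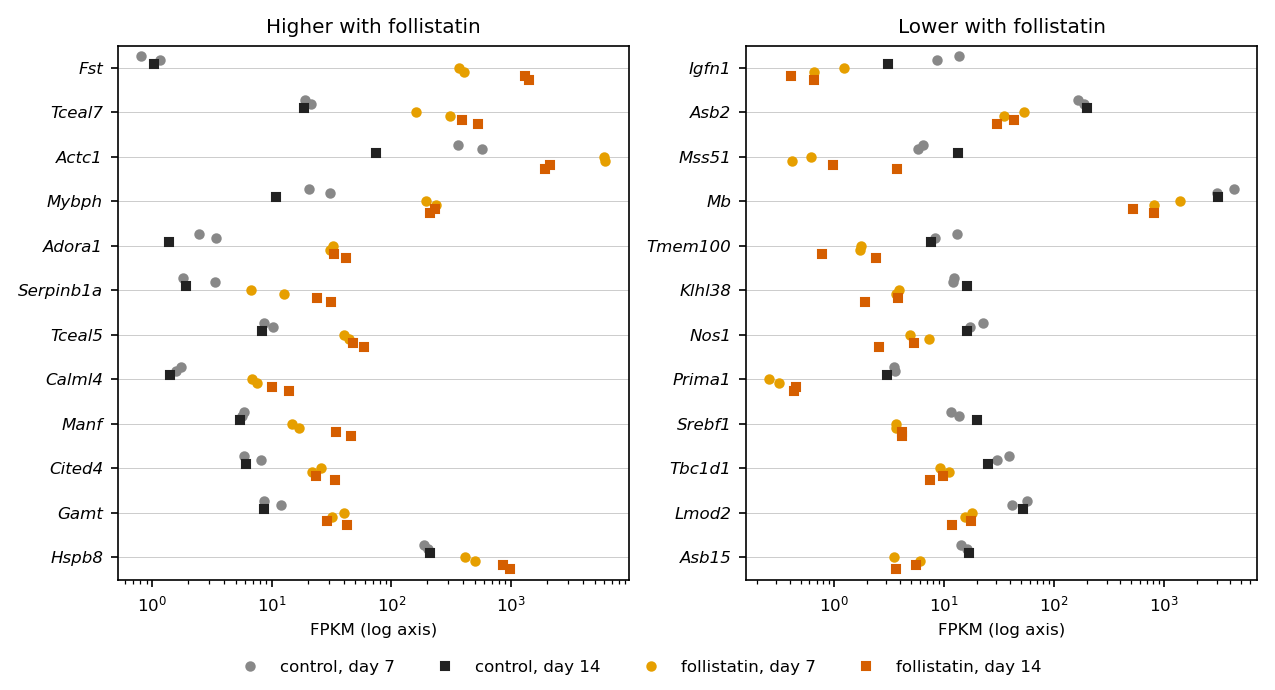
FPKM (log axis) of the 12 genes with the largest rise (left) and the 12 with the largest fall (right), 1 point per library. Grey circles are day 7 controls, the black square is the day 14 control, and orange circles and red squares are the follistatin libraries of days 7 and 14. The follistatin points of each gene lie on 1 side of the control points because this was a condition for being chosen.

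Promoters are shown for the 2 genes of highest mean FPKM among the 12 largest rises and the 2 among the 12 largest falls, as the stretch before the start of transcription. They are the 250 bases before a RefSeq start (GRCm38.p6), on the minus strand for all 3 genes, written in the direction of transcription, with matches to the searched motifs in capitals. For Asb2 this is 1 of 2 annotated starts and for Mb 1 of 3. The bases just after the start were found near the beginning of a GENCODE transcript for Actc1 and Mb. For Asb2 they were not, so its stretch may not lie before a start that is used. Fst, the other of the 4 genes, is named only.
Actc1 promoter, chr2:114052876-114053125: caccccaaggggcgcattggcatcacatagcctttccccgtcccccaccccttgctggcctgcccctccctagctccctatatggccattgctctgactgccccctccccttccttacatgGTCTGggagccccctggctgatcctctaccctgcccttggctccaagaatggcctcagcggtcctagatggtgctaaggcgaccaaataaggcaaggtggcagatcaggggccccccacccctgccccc
Mb promoter, chr15:77022728-77022977: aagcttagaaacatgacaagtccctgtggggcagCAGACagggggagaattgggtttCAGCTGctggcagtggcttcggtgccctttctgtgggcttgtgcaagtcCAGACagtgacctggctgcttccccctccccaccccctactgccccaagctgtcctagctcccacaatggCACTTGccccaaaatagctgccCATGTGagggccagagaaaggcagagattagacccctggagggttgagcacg
Asb2 promoter, chr12:103338391-103338640: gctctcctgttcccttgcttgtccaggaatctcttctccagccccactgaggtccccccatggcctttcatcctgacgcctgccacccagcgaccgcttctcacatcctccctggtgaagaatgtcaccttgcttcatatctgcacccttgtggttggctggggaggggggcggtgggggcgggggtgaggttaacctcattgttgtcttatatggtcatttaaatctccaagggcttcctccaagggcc
The motifs, searched on both strands, were CANNTG (the E-box that myogenic factors bind), CAGAC (a site of Smad proteins) and CTATTTA (part of the site of Mef2 factors). The Actc1 stretch, which belongs to a gene that rose, held 1 match to CAGAC, on the other strand and so printed as GTCTG. The Mb stretch, of a gene that fell, held 3 matches to CANNTG and 2 to CAGAC, none of them overlapping, and the Asb2 stretch held no match. Among 32851 promoter stretches of the same length, 66.2% held CANNTG, 42.2% CAGAC and 2.63% CTATTTA. A match is a description of these letters and not a bound site.

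Genes of the pathway that follistatin acts on changed in both directions, with receptors and a Smad partner lower. The gene lists, here and below, were written with earlier results of these data known. Their shares beside all genes are a description and no independent evidence. Over all lists, 88 of 979 tested members were called. Of 23 tested ligand, receptor and Smad genes of the myostatin, activin and TGF-beta branch, 1 was called higher and 4 lower (all genes: 2.24% and 3.27%), with a median log2 fold change of -0.19 against -0.09 for all genes. Acvr1b, the type I activin receptor ALK4, lay at 19.9, 17.7 and 20.4 FPKM in the controls, 8.33 and 9.73 at day 7 of follistatin and 10.5 and 7.37 at day 14, with every follistatin library under every control (log2 difference -1.03, SE 0.13, adjusted p = 0.00991). Skil, a co-repressor that binds Smads and is itself induced by them, lay at 6.11, 4.37 and 4.58 FPKM in the controls, 1.29 and 1.71 at day 7 of follistatin and 1.84 and 1.58 at day 14. Skil fell by 1.20 on the log2 scale (SE 0.14, adjusted p = 0.00737). The type II receptor gene Acvr2b lay at 2.62, 2.58 and 2.56 FPKM in the controls, 1.33 and 1.82 at day 7 of follistatin and 1.35 and 1.14 at day 14 (log2 difference -0.58, SE 0.13, adjusted p = 0.0424). The ligand gene Tgfb3 lay at 11.3 to 13.5 FPKM in controls and 5.61 to 8.73 FPKM with follistatin (log2 difference -0.73, SE 0.15, adjusted p = 0.0352). The 1 higher gene was Inha, the inhibin alpha subunit, at 2.900 to 5.62 and 6.52 to 8.22 FPKM (log2 difference 0.79, SE 0.18, adjusted p = 0.0499). Acvr2b and Inha were named after their values were seen.

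Myostatin's own gene, Mstn, lay at 12.9 and 20.2 FPKM in the day 7 controls, 23.7 in the day 14 control, 18.3 and 39.8 in the day 7 follistatin libraries and 52.8 and 36.1 in those of day 14. One day 7 follistatin library lay within the controls, and the difference did not pass by limma (log2 difference 0.87, SE 0.35, adjusted p = 0.15). The authors' deposited Cuffdiff test called Mstn higher (log2 fold change 0.95, q = 0.000894). Among the Smad transcription factors of these ligands, Smad4 lay at 19.8 to 23.7 and 10.8 to 16.8 FPKM (adjusted p = 0.0572). Smad3 lay at 31.8 to 35.8 and 17.2 to 29.0 FPKM (adjusted p = 0.128) and Smad2 at 2.52 to 2.58 and 1.88 to 2.61 FPKM (adjusted p = 0.625). None of the 3 passed.

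The BMP branch, which signals through other type I receptors and Smads, had 1 called gene of 16 tested, the receptor gene Acvr1 (ALK2), at 8.65, 9.45 and 9.83 FPKM in the controls, 2.96 and 4.75 at day 7 of follistatin and 4.19 and 2.997 at day 14. Acvr1 fell by 1.14 on the log2 scale (SE 0.15, adjusted p = 0.0109). The 1 call is 6.25% of the list, near the 5.5% of all genes, and the list's median was -0.21. Of 16 genes known to respond to TGF-beta, none was called higher and 3 lower (18.8%, against 3.27% of all genes called lower), with a median of -0.25. Pmepa1, a membrane protein that limits Smad signalling, lay at 2.86 to 4.13 and 0.9199 to 1.64 FPKM (log2 difference -0.95, SE 0.16, adjusted p = 0.0215). The matricellular gene Cyr61 lay at 9.27 to 15.8 and 3.99 to 7.27 FPKM (log2 difference -1.10, SE 0.22, adjusted p = 0.0331) and the adaptor gene Nedd9 at 3.81 to 4.51 and 1.97 to 2.98 FPKM (log2 difference -0.58, SE 0.13, adjusted p = 0.0421). Without control day 7 replicate 1 or control day 14 replicate 1 each of these genes, and Acvr1, Acvr1b and Tgfb3, lost its call, while Skil remained called without each library.

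In the growth pathway of IGF, Akt and mTOR, 2 of 34 genes (5.88%) were called, near the share of all genes (5.5%). Both were higher, while the list's median was -0.24 (-0.13 at day 7 and -0.23 at day 14). Igf2, a growth factor, lay at 6.28, 4.94 and 3.29 FPKM in the controls, 11.1 and 12.7 at day 7 of follistatin and 9.11 and 10.4 at day 14. Igf2 rose by 1.04 on the log2 scale (SE 0.19, adjusted p = 0.0251). Irs1, the docking protein of the insulin and IGF receptors, lay at 17.8, 19.7 and 14.5 FPKM in the controls, 25.3 and 33.5 at day 7 of follistatin and 24.6 and 26.5 at day 14. Irs1 rose by 0.64 on the log2 scale (SE 0.15, adjusted p = 0.0497), and it lost its call without any 1 of the 7 libraries. Igf2 shares 3596 exon bases with a read-through gene on its own strand, and Irs1 shares 2822 with Gm9747 on the other. Igf1 lay at 3.305 to 6.01 FPKM in controls and 2.83 to 6.16 FPKM with follistatin, with overlapping arms (log2 difference -0.15, SE 0.24, adjusted p = 0.688).

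Genes of muscle protein breakdown were lower where they differed, with 1 exception. Of 24 FoxO factors and atrophy ligases, 1 was called higher and 3 lower (16.7% called, against 5.5% of all genes), with a median of -0.29. Fbxo32, the ligase atrogin-1, lay at 50.1 and 52.5 FPKM in the day 7 controls, 44.7 in the day 14 control, 15.7 and 16.5 in the day 7 follistatin libraries and 25.3 and 22.4 in those of day 14. Both days lay below controls (-1.61 at day 7 and -0.88 at day 14; log2 difference -1.28, SE 0.18, adjusted p = 0.0117 over both days), and the difference between days did not pass (adjusted p = 1.00). Foxo4, a FoxO transcription factor, lay at 63.8, 54.7 and 63.8 FPKM in the controls, 35.4 and 28.1 at day 7 of follistatin and 24.6 and 22.3 at day 14. Foxo4 fell by 1.13 on the log2 scale (SE 0.16, adjusted p = 0.0131). Fbxo31, an F-box gene named after its values were seen, lay at 26.9 to 34.8 and 17.5 to 22.8 FPKM (log2 difference -0.63, SE 0.14, adjusted p = 0.0414). Trim63, the ligase MuRF1, lay at 113 and 123 FPKM in the day 7 controls, 116 in the day 14 control, 88.0 and 81.4 in the day 7 follistatin libraries and 85.9 and 102 in those of day 14. Its arms did not overlap, but the difference missed the threshold (log2 difference -0.40, SE 0.11, adjusted p = 0.0737). The gene that went up, Fbxl22, codes for an F-box protein of the sarcomere and lay at 1.71, 1.65 and 1.26 FPKM in the controls, 3.64 and 5.35 at day 7 of follistatin and 6.56 and 6.26 at day 14. It shares 317 exon bases with Herc1 on the opposite strand. Fbxl22 rose by 1.32 on the log2 scale (SE 0.18, adjusted p = 0.0117), and the authors' deposited Cuffdiff test did not call it (q = 0.125). Fbxo32 lost its call without any 1 of the 3 controls. Foxo4 and Fbxl22 lost theirs without control day 7 replicate 1 or control day 14 replicate 1.

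Of 20 genes for Cullin-5 and its ankyrin repeat, SOCS box receptors, 6 (30%, against 5.5% of all genes) were called, all lower. The list's median was -0.24. Asb2 was 1 of the 6. Asb15 lay at 14.3, 16.1 and 16.7 FPKM in the controls, 3.55 and 6.02 at day 7 of follistatin and 5.54 and 3.68 at day 14. Asb15 fell by 1.58 on the log2 scale (SE 0.18, adjusted p = 0.00655). Asb14 lay at 67.3 to 76.9 and 38.8 to 44.9 FPKM (log2 difference -0.78, SE 0.10, adjusted p = 0.0109). Asb11, Asb4 and Asb13 had log2 fold changes of -1.02, -0.58 and -0.51. The last 3 were named after their values were seen. All 6 code for substrate receptors, while Cul5, the shared scaffold, lay at 24.7 to 25.5 FPKM in controls and 15.5 to 24.9 FPKM with follistatin (adjusted p = 0.281). Asb12 lay above all controls in every follistatin library, at 48.3 to 54.9 against 40.6 to 42.7 FPKM, and did not pass (adjusted p = 0.0876). The list was written knowing that Asb2 falls here, so its count is no independent evidence of direction.

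Of 17 muscle kelch-like genes and Cullin-3, 5 (29.4%, against 5.5% of all genes) were called lower and none higher, with a median of -0.27. Kelch-like proteins bind Cullin-3 and hand substrates to it. Klhl38 lay at 12.2, 12.1 and 16.2 FPKM in the controls, 3.89 and 3.63 at day 7 of follistatin and 3.83 and 1.91 at day 14, with follistatin day 14 replicate 2 the lowest. Klhl38 fell by 1.77 on the log2 scale (SE 0.20, adjusted p = 0.00767), and it remained called without each library. It shares 1446 exon bases with the antisense gene Gm15943. Klhl21 lay at 35.4 to 45.4 and 19.6 to 27.0 FPKM (log2 difference -0.85, SE 0.14, adjusted p = 0.0199) and Klhl34 at 5.81 to 9.15 and 2.05 to 4.19 FPKM (log2 difference -1.10, SE 0.21, adjusted p = 0.03). The other 2, named after their values were seen, were Klhl33 (log2 difference -0.99, SE 0.22, adjusted p = 0.0438) and the nemaline myopathy gene Kbtbd13 (log2 difference -1.04, SE 0.24, adjusted p = 0.0476).

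Of 33 autophagy and lysosome genes, 5 (15.2%, against 5.5% of all genes) were called lower and none higher, with a median of -0.20. Ulk1, the kinase that starts autophagy, lay at 24.1, 21.6 and 19.7 FPKM in the controls, 12.5 and 12.4 at day 7 of follistatin and 11.6 and 9.62 at day 14. Ulk1 fell by 0.86 on the log2 scale (SE 0.12, adjusted p = 0.0129). Pink1, the kinase of mitophagy, lay at 343, 302 and 377 FPKM in the controls, 209 and 143 at day 7 of follistatin and 136 and 158 at day 14. Pink1 fell by 1.08 on the log2 scale (SE 0.17, adjusted p = 0.0164). Map1lc3b, the LC3 protein of the autophagosome, lay at 112 to 132 and 75.7 to 90.2 FPKM (log2 difference -0.60, SE 0.11, adjusted p = 0.0281). Ctsd, a lysosomal protease (log2 difference -0.44, SE 0.10, adjusted p = 0.0463), and Atg9a, a lipid scramblase (log2 difference -0.64, SE 0.15, adjusted p = 0.048), were named after their values were seen. Map1lc3b was no longer called after rescaling by the median ratio, where 2 genes of the list were called. None of the 35 proteasome subunit genes was called by limma, 7 had an unadjusted p under 0.05 (6 higher and 1 lower), and the list's median was 0.17, with 30 of 35 above 0. Over all genes, 3124 of 11047 had such an unadjusted p.

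On the side of protein synthesis, some endoplasmic reticulum (ER) genes rose and ribosomal protein genes were slightly above controls without passing. Of 33 ER chaperone and unfolded protein response genes, 7 were called higher and none lower (all genes: 2.24% higher), and 30 of 33 lay above 0 with a median of 0.49, 0.25 at day 7 and 0.84 at day 14. Hspa5, the main ER chaperone BiP, lay at 84.5 and 81.8 FPKM in the day 7 controls, 82.4 in the day 14 control, 156 and 194 in the day 7 follistatin libraries and 322 and 341 in those of day 14. The day 14 follistatin libraries stood above those of day 7, and these above all controls (log2 difference 1.52, SE 0.27, adjusted p = 0.0251). Manf, a secreted factor induced by ER stress, had the same order, at 5.91 and 5.62 FPKM in the day 7 controls, 5.48 in the day 14 control, 14.7 and 17.0 in the day 7 follistatin libraries and 34.5 and 46.4 in those of day 14. Manf rose by 1.98 on the log2 scale (SE 0.37, adjusted p = 0.0285). Pdia6, a disulfide isomerase, lay at 20.0, 22.4 and 21.2 FPKM in the controls, 46.3 and 49.5 at day 7 of follistatin and 62.2 and 86.6 at day 14. Pdia6 rose by 1.44 on the log2 scale (SE 0.21, adjusted p = 0.0131).

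The other called ER genes were the translocon subunits Ssr2 (23.2 to 26.8 and 40.3 to 62.5 FPKM, log2 difference 1.00, SE 0.16, adjusted p = 0.0166) and Sec61b (24.7 to 27.4 and 42.6 to 64.8 FPKM, log2 difference 0.96, SE 0.16, adjusted p = 0.0202). The stress genes Hyou1 and Creld2 had log2 fold changes of 0.86 and 0.94. Hspa5, Hyou1 and Creld2 were named after their values were seen. Sdf2l1, another ER stress gene, lay at 1.43, 1.76 and 1.61 FPKM in the controls, 3.11 and 3.404 at day 7 of follistatin and 9.77 and 13.8 at day 14 and did not pass (adjusted p = 0.0844). The transcription factor gene of the pathway, Xbp1, lay at 23.6 to 26.7 and 27.5 to 42.0 FPKM (adjusted p = 0.0894) and Ddit3 (CHOP) had a log2 fold change of -0.07. The number of called ER genes ranged from 0 to 17 when 1 library was left out, being 0 without control day 7 replicate 1 or control day 14 replicate 1, 1 without control day 7 replicate 2 and 17 without follistatin day 7 replicate 1. The list's median stayed between 0.40 and 0.61. Macrophage markers lay in the same direction as the list, with a median of 0.45 over 13 tested, 0.04 at day 7 and 1.29 at day 14. Their summed level was 53.7 to 141 FPKM in controls and 84.5 to 266 FPKM with follistatin, and their part in the ER result was not tested.

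Of 79 cytosolic ribosomal protein genes, none was called by limma, 21 had an unadjusted p under 0.05, all higher, and 78 lay above 0 with a median of 0.32 (0.47 at day 7 and 0.12 at day 14). An unadjusted p under 0.05 was found for 3124 of all 11047 genes, so the 21 do not set this list apart. Rpl10, the member with the smallest p, lay at 415, 399 and 450.0 FPKM in the controls, 638 and 587 at day 7 of follistatin and 525 and 721 at day 14. The Rpl10 difference was 0.54 on the log2 scale (SE 0.13, adjusted p = 0.0521). In ribosome assembly 1 of 39 genes (2.56%, against 5.5% of all genes) was called, Bysl, a factor of the small subunit, at 7.22, 7.45 and 6.89 FPKM in the controls, 11.8 and 9.73 at day 7 of follistatin and 9.74 and 9.55 at day 14. Bysl rose by 0.45 on the log2 scale (SE 0.10, adjusted p = 0.0465), and the authors' deposited Cuffdiff test did not call it (q = 0.112). Bysl was called in only 1 of the 7 fits without a library, and it shares 361 exon bases with Ccnd3 on the opposite strand. Of 36 translation factor genes, 2 were higher and 1 lower (8.33% called, against 5.5% of all genes). Eef1g, a subunit of elongation factor 1, lay at 323, 318 and 355 FPKM in the controls, 577 and 515 at day 7 of follistatin and 464 and 628 at day 14. Eef1g rose by 0.71 on the log2 scale (SE 0.13, adjusted p = 0.0256). Eif5a, which carries the modified residue hypusine, lay at 228 to 260.0 and 309 to 412 FPKM (log2 difference 0.60, SE 0.13, adjusted p = 0.0432). The lower one was the initiation factor gene Eif4b, at 70.9 to 81.1 and 48.7 to 53.7 FPKM (log2 difference -0.54, SE 0.10, adjusted p = 0.0265), and it was not called after rescaling by the median ratio.

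Of 16 genes of polyamine and S-adenosylmethionine synthesis, 2 (12.5%, against 5.5% of all genes) were called, both higher. Odc1, ornithine decarboxylase, the first step to polyamines, lay at 49.3, 44.7 and 48.6 FPKM in the controls, 85.8 and 93.2 at day 7 of follistatin and 111 and 151 at day 14. Odc1 rose by 1.16 on the log2 scale (SE 0.19, adjusted p = 0.0193). Azin1, which frees that enzyme from its inhibitor antizyme, lay at 17.0, 16.7 and 15.0 FPKM in the controls, 20.96 and 44.6 at day 7 of follistatin and 44.0 and 43.1 at day 14, with follistatin day 7 replicate 1 far below the other 3. Azin1 rose by 1.13 on the log2 scale (SE 0.26, adjusted p = 0.048). Of 26 ATF4 targets, amino acid synthesis genes and tRNA synthetases, 1 (3.85%, against 5.5% of all genes) was called, the proline synthesis gene Aldh18a1, at 1.89 to 3.01 and 4.09 to 8.04 FPKM (log2 difference 1.04, SE 0.22, adjusted p = 0.0405).

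**Figure D3:**
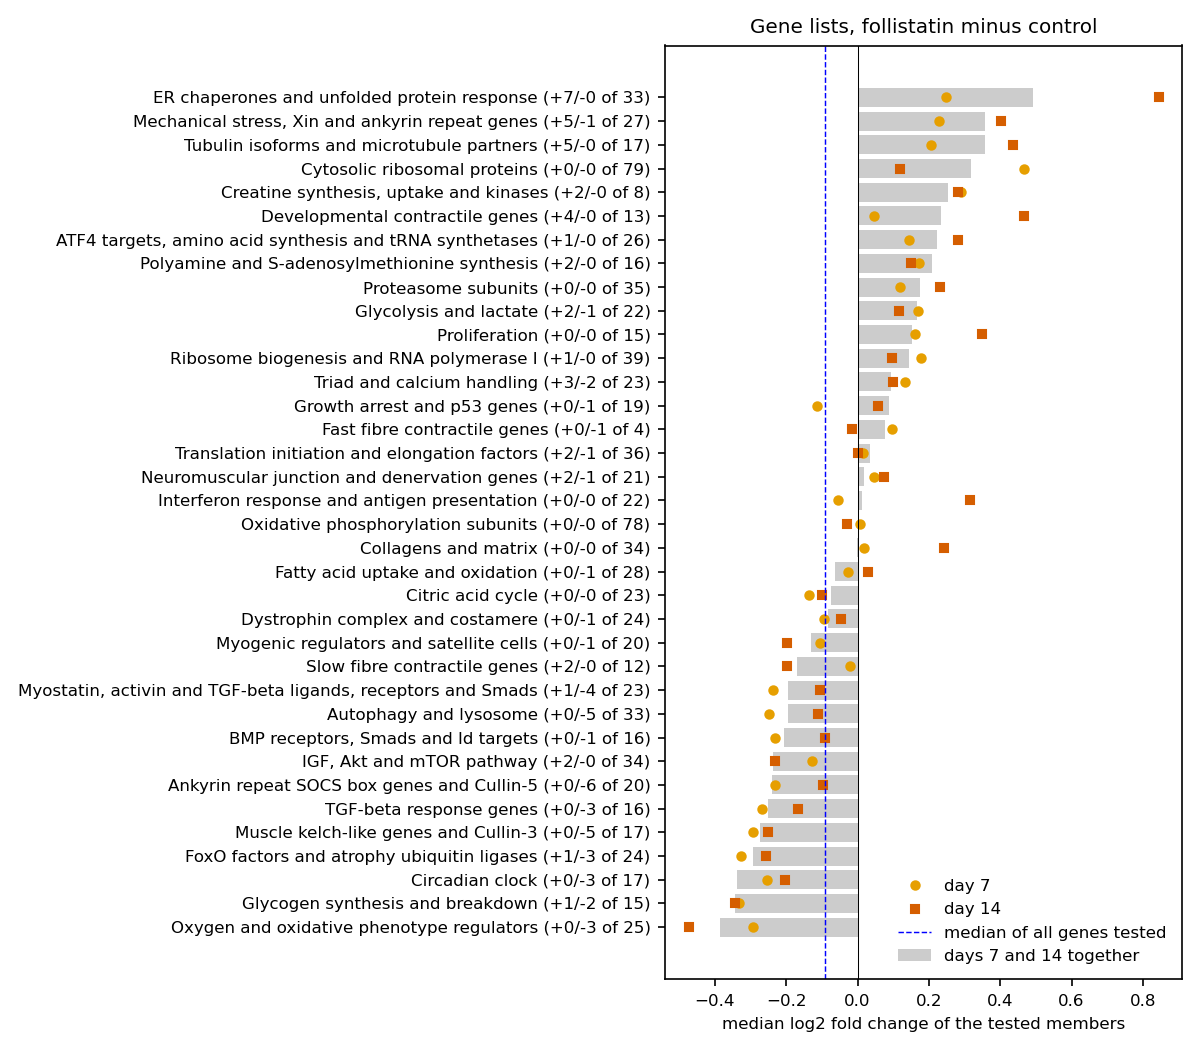
Median log2 fold change of the tested members of each gene list over both days together (grey bars), at day 7 (orange circles) and at day 14 (red squares), with the numbers of members called higher and lower after each name. The dashed blue line is the median of all tested genes, -0.09. ER chaperones, tubulins and mechanical stress genes have the highest called counts above 0, and ligase and oxygen genes lie below the dashed line.

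Genes of the contractile apparatus and its supports changed in part. Of 13 developmental contractile genes, 4 (30.8%, against 5.5% of all genes) were called, all higher: Actc1 and Mybph above, Nes and Casq2. Like the others, this list was written with earlier results of these data known. Nes, the intermediate filament nestin of young fibres, lay at 13.2, 12.3 and 12.2 FPKM in the controls, 22.1 and 26.5 at day 7 of follistatin and 31.1 and 34.3 at day 14. Nes rose by 1.10 on the log2 scale (SE 0.15, adjusted p = 0.0117). Casq2, the slow and cardiac calsequestrin, lay at 22.4, 30.7 and 24.03 FPKM in the controls, 61.3 and 87.1 at day 7 of follistatin and 54.2 and 60.8 at day 14. Casq2 rose by 1.31 on the log2 scale (SE 0.18, adjusted p = 0.0124). The developmental myosin gene Myh3 lay at 1.07 to 1.93 and 0.806 to 1.77 FPKM (adjusted p = 0.729). The fetal troponin gene Tnnt2 lay at 2.42 to 3.91 and 3.15 to 4.37 FPKM (adjusted p = 0.258), so neither Myh3 nor Tnnt2 was among the called members. Another developmental myosin gene, Myh8, had status HIDATA and was not tested. The median of the list was 0.23, 0.05 at day 7 and 0.47 at day 14.

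Of 12 slow fibre genes, 2 (16.7%, against 5.5% of all genes) were called, both higher. They were Casq2 and the M-band gene Myom3 (2.86 to 4.11 and 5.76 to 7.02 FPKM, log2 difference 0.64, SE 0.13, adjusted p = 0.034). The list's median was -0.17. Of 19 fast fibre genes, 15 had status HIDATA and 4 were tested. The 1 called of these 4 (25%, against 5.5% of all genes) was Mylk2, the kinase that phosphorylates the fast myosin light chain. Mylk2 was called lower, at 424, 345 and 415 FPKM in the controls, 193 and 138 at day 7 of follistatin and 156 and 148 at day 14. Mylk2 fell by 1.32 on the log2 scale (SE 0.15, adjusted p = 0.00644), and it remained called without each library.

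Of 23 triad and calcium genes, 3 were higher and 2 lower (21.7% called, against 5.5% of all genes). Sypl2, the triad membrane protein mitsugumin 29, lay at 197, 228 and 192 FPKM in the controls, 421 and 448 at day 7 of follistatin and 400.4 and 355 at day 14. Sypl2 rose by 0.98 on the log2 scale (SE 0.12, adjusted p = 0.00876). Sln, sarcolipin, which inhibits the calcium pump, lay at 3.14, 5.68 and 3.15 FPKM in the controls, 14.5 and 13.9 at day 7 of follistatin and 11.3 and 11.5 at day 14. Sln rose by 1.496 on the log2 scale (SE 0.19, adjusted p = 0.00987). Bin1, which shapes the transverse tubules, lay at 239, 262 and 283 FPKM in the controls, 449.9 and 384 at day 7 of follistatin and 459.8 and 547 at day 14. Bin1 rose by 0.81 on the log2 scale (SE 0.14, adjusted p = 0.0222). The lower genes were Ryr1, the calcium release channel, at 266 to 335 and 155 to 222 FPKM (log2 difference -0.71, SE 0.15, adjusted p = 0.0404), and Mrln, the pump inhibitor myoregulin, at 103 to 122 and 49.8 to 82.7 FPKM (log2 difference -0.87, SE 0.18, adjusted p = 0.0363). Both were named after their values were seen, and after rescaling by the median ratio 5 of the list were called higher and none lower.

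Tubulin genes were among those that rose. Of 17 tested genes of tubulins and their partners, 5 (29.4%, against 5.5% of all genes) were called, all higher. All 5 are tubulins, and the list's median was 0.36. Tubb6, a beta-tubulin, lay at 11.1 and 10.4 FPKM in the day 7 controls, 10.5 in the day 14 control, 27.0 and 26.2 in the day 7 follistatin libraries and 25.1 and 28.2 in those of day 14. Within each arm these libraries were within a narrow range (log2 difference 1.24, SE 0.09, adjusted p = 0.00153). Tubb4b lay at 99.0 and 94.5 FPKM in the day 7 controls, 116 in the day 14 control, 265 and 248 in the day 7 follistatin libraries and 238 and 283 in those of day 14. Tubb4b rose by 1.32 on the log2 scale (SE 0.12, adjusted p = 0.00277), with the same separation. Tuba4a, an alpha-tubulin, lay at 252 and 267 FPKM in the day 7 controls, 356 in the day 14 control, 668 and 637 in the day 7 follistatin libraries and 613 and 664 in those of day 14. Tuba4a rose by 1.16 on the log2 scale (SE 0.14, adjusted p = 0.00797), and it shares 1379 exon bases with Stk16 on the opposite strand.

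Tuba8 (143 to 166 and 276 to 416 FPKM, log2 difference 1.10, SE 0.16, adjusted p = 0.0129) and Tubb5 (14.7 to 16.2 and 22.8 to 29.4 FPKM, log2 difference 0.73, SE 0.12, adjusted p = 0.0174), both named after their values were seen, completed the 5. Tubb2a, Tuba1a and Tuba1b did not pass (log2 fold changes of -0.14, 0.09 and 0.26). Tubb6 and Tubb4b remained called without each library in turn, and Tuba4a lost its call only without control day 7 replicate 1. Tubulin genes are near copies of each other, so fragments can have been split between them.

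Genes of small heat shock proteins were also among those that rose. Of 27 genes of mechanical stress, Xin proteins, muscle ankyrin repeats and small heat shock proteins, 5 were called higher and 1 lower. That is 22.2% of the list, against 5.5% of all genes, and the list's median was 0.36. Hspb8, a chaperone that works with Bag3, lay at 187 and 204 FPKM in the day 7 controls, 210.1 in the day 14 control, 412 and 501 in the day 7 follistatin libraries and 850.3 and 979.5 in those of day 14. Hspb8 rose by 1.68 on the log2 scale (SE 0.30, adjusted p = 0.0238). Hspb1 had the same order, at 82.3, 88.7 and 80.0 FPKM in the controls, 217 and 164 at day 7 of follistatin and 279 and 317 at day 14. Hspb1 rose by 1.49 on the log2 scale (SE 0.22, adjusted p = 0.0131). Hspb6 lay at 755, 703 and 729 FPKM in the controls, 1583 and 1240 at day 7 of follistatin and 1657 and 1714 at day 14. Hspb6 rose by 1.08 on the log2 scale (SE 0.13, adjusted p = 0.00864). Cryab, alpha-B crystallin (485 to 499 and 805 to 1672 FPKM, log2 difference 1.18, SE 0.23, adjusted p = 0.0334), and the PDZ-LIM gene Pdlim7 (152 to 185 and 236 to 343 FPKM, log2 difference 0.69, SE 0.15, adjusted p = 0.0428), both named after their values were seen, were the others.

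The lower gene of that list was Ankrd23, a titin-binding ankyrin repeat gene, at 1328, 1251 and 1041 FPKM in the controls, 666 and 644 at day 7 of follistatin and 699 and 630.1 at day 14. Ankrd23 fell by 0.86 on the log2 scale (SE 0.11, adjusted p = 0.0106). It shares 2109 exon bases with a read-through gene on its strand. Bag3 itself lay at 46.6 to 55.4 FPKM in controls and 54.7 to 65.1 FPKM with follistatin (adjusted p = 0.169). Without control day 7 replicate 1 or control day 14 replicate 1, the calls of Hspb1, Hspb6 and Hspb8 were lost, and that of Hspb8 also without control day 7 replicate 2 or follistatin day 14 replicate 1. Of 24 genes of the dystrophin complex and costamere only Nos1 was called (4.17%, against 5.5% of all genes).

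**Figure D4:**
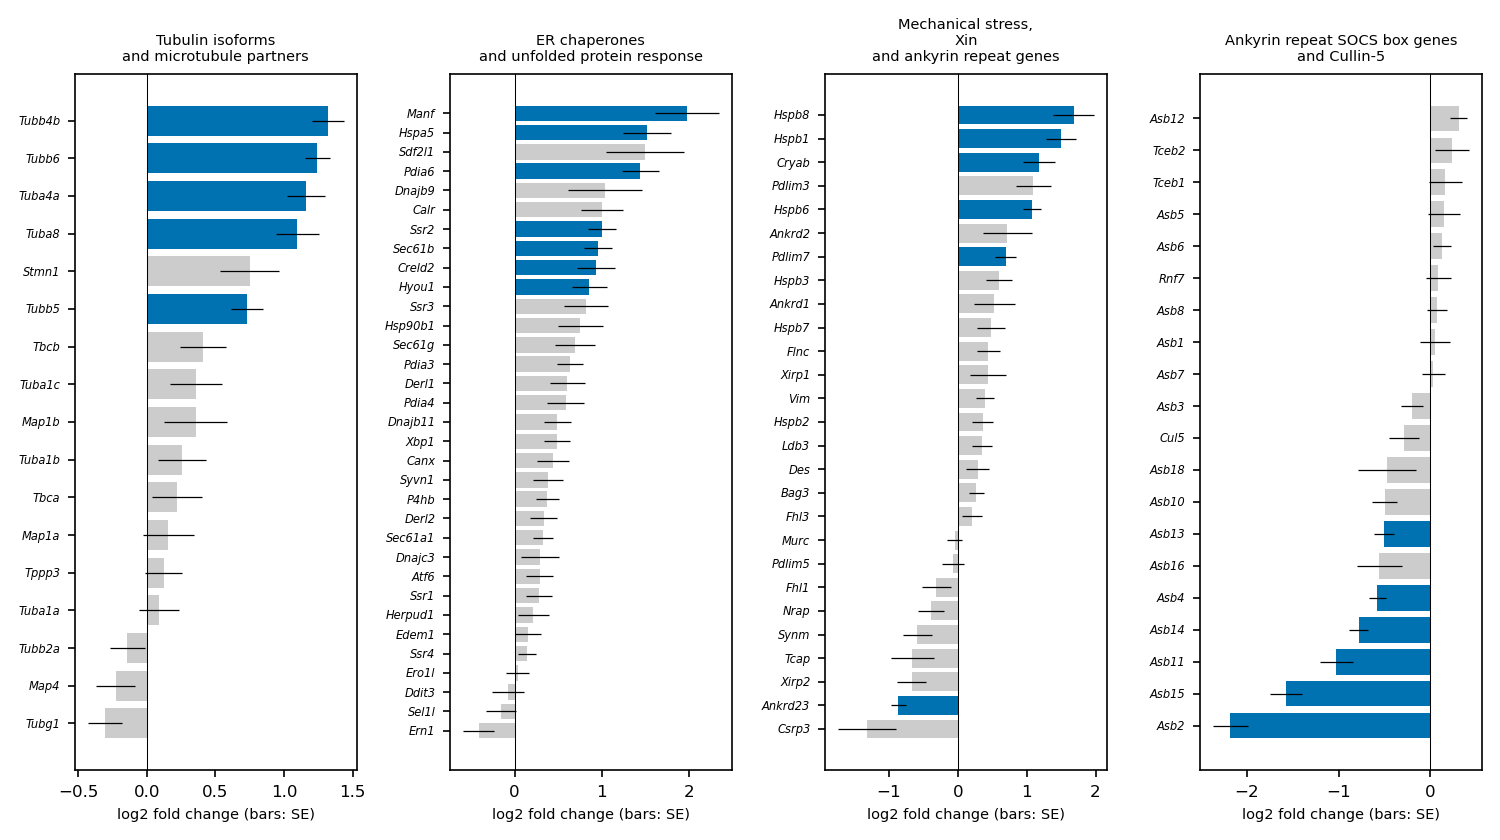
Log2 fold change over both days (bars, with standard errors) of every tested member of 4 gene lists, blue where the member was called and grey where it was not. The called tubulins, ER genes and small heat shock genes lie to the right of 0 and the called ankyrin repeat and SOCS box genes to the left.

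In metabolism, 3 genes of the oxygen list fell and no gene of the respiratory chain was called by limma. Of 25 genes of oxygen and oxidative phenotype, 3 (12%, against 5.5% of all genes) were called lower and none higher. In the list 23 of 25 lay below 0 and the median was -0.39 (-0.29 at day 7 and -0.47 at day 14). The 3 called genes were Mb, Mss51 and the antioxidant transcription factor gene Nfe2l2 (17.5 to 20.4 and 11.96 to 13.6 FPKM, log2 difference -0.50, SE 0.10, adjusted p = 0.0328). Nfe2l2 was not called after rescaling by the median ratio. Ppargc1a, the co-activator of mitochondrial genes, lay at 13.0, 10.1 and 9.86 FPKM in the controls, 5.54 and 8.29 at day 7 of follistatin and 7.48 and 3.68 at day 14 (adjusted p = 0.0907). The angiogenic factor gene Vegfa lay at 92.9, 85.1 and 84.9 FPKM in the controls, 58.2 and 65.5 at day 7 of follistatin and 47.9 and 38.8 at day 14 (adjusted p = 0.0518). Endothelial markers lay in the same direction: 19 of 20 were below 0 and their median was -0.56. Their summed level was 864 to 1079 FPKM in controls and 500.1 to 777 FPKM with follistatin, and none was listed at 0. Their part in the oxygen list was not tested.

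None of 78 subunit genes of oxidative phosphorylation was called by limma, 2 had an unadjusted p under 0.05 and the median was 0.00. Sdha, a subunit of complex II, had the smallest p, at 525 to 586 and 407 to 448 FPKM (log2 difference -0.38, SE 0.10, adjusted p = 0.0599). None of 23 citric acid cycle genes was called by limma, 7 had an unadjusted p under 0.05, all lower, and the median of -0.07 turned to 0.04 after rescaling by the median ratio. Such an unadjusted p was found for 3124 of all 11047 genes. Of 28 fatty acid genes 1 (3.57%, against 5.5% of all genes) was called, the lipoprotein lipase gene Lpl, at 136, 119.9 and 125 FPKM in the controls, 80.3 and 83.6 at day 7 of follistatin and 58.3 and 61.6 at day 14. Lpl fell by 0.85 on the log2 scale (SE 0.15, adjusted p = 0.0262).

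Glycolytic genes were split. Of 22 tested, 2 were called higher and 1 lower (13.6% called, against 5.5% of all genes). Pgk1 lay at 888, 889 and 924 FPKM in the controls, 1298 and 1432 at day 7 of follistatin and 1399 and 1851 at day 14. Pgk1 rose by 0.72 on the log2 scale (SE 0.13, adjusted p = 0.0281). Eno1 lay at 28.6 to 34.7 and 46.3 to 56.5 FPKM (log2 difference 0.63, SE 0.12, adjusted p = 0.0309), and both are enzymes of the later steps of the pathway. Pfkm, the muscle phosphofructokinase, was called lower, at 2206, 1882 and 2195 FPKM in the controls, 1305 and 962 at day 7 of follistatin and 1015 and 1108 at day 14. Pfkm fell by 0.94 on the log2 scale (SE 0.13, adjusted p = 0.0125). In glycogen metabolism 1 of 15 genes was higher and 2 lower (20% called, against 5.5% of all genes). Stbd1, which binds glycogen, lay at 56.4 and 59.3 FPKM in the day 7 controls, 45.3 in the day 14 control, 133 and 157 in the day 7 follistatin libraries and 201 and 209 in those of day 14, with the day 14 libraries the highest (log2 difference 1.67, SE 0.19, adjusted p = 0.00655). Epm2a, the glycogen phosphatase laforin, lay at 42.8, 37.0 and 42.0 FPKM in the controls, 15.8 and 23.7 at day 7 of follistatin and 25.5 and 14.2 at day 14. Epm2a fell by 1.04 on the log2 scale (SE 0.21, adjusted p = 0.0358). Phkg1, a subunit of phosphorylase kinase, lay at 256 to 265 and 158 to 193 FPKM (log2 difference -0.56, SE 0.11, adjusted p = 0.0349), and it was not called after rescaling by the median ratio, where 1 gene of the list was higher and 1 lower. Phkg1 shares 630 exon bases with Sumf2 on the opposite strand.

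Both genes of creatine synthesis were called higher. They were 2 of 8 tested (25%, against 5.5% of all genes) in the list of creatine synthesis, uptake and kinases. Gatm, the first enzyme, lay at 2.27, 2.86 and 3.12 FPKM in the controls, 4.73 and 10.6 at day 7 of follistatin and 9.92 and 16.7 at day 14. Gatm rose by 1.51 on the log2 scale (SE 0.33, adjusted p = 0.043). Gamt is given above. The creatine transporter gene Slc6a8 lay at 40.6 to 43.1 and 29.7 to 36.5 FPKM (adjusted p = 0.0851), below controls in all 4 follistatin libraries. The creatine kinase gene Ckm had status HIDATA.

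Among other genes of the tissue, Ache, acetylcholinesterase, was called higher, at 14.4, 17.9 and 10.6 FPKM in the controls, 23.9 and 24.1 at day 7 of follistatin and 25.1 and 22.3 at day 14. Ache rose by 0.73 on the log2 scale (SE 0.16, adjusted p = 0.0444). Prima1, its anchor, is given above as lower. With Sln they were the 3 called of 21 genes of the neuromuscular junction and denervation (14.3%, against 5.5% of all genes). Of 20 myogenic and satellite cell genes only Eya1, a co-activator in myogenesis, was called, at 7.97 to 8.74 and 4.29 to 6.196 FPKM (log2 difference -0.62, SE 0.14, adjusted p = 0.0465). Its call was lost without any 1 of the 7 libraries, after rescaling by the median ratio and with day as a covariate, and 1 of 20 (5%) is near the share of all genes (5.5%). Myog, the myogenic factor of differentiation, lay at 2.25, 2.06 and 1.11 FPKM in the controls, 3.67 and 3.81 at day 7 of follistatin and 2.81 and 3.17 at day 14 and did not pass (adjusted p = 0.066). Gadd45b, a growth arrest gene, was the 1 called of 19 in its list (5.26%, against 5.5% of all genes), at 17.8, 15.0 and 9.62 FPKM in the controls, 5.98 and 5.76 at day 7 of follistatin and 3.02 and 5.24 at day 14. Gadd45b fell by 1.33 on the log2 scale (SE 0.25, adjusted p = 0.0292).

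Among the clock genes, Bhlhe40 lay at 49.2 to 63.0 and 23.7 to 29.2 FPKM (log2 difference -0.99, SE 0.13, adjusted p = 0.00991) and Per3 at 3.68 to 5.46 and 2.26 to 2.86 FPKM (log2 difference -0.64, SE 0.13, adjusted p = 0.0369), both called lower. Per3 was not called after rescaling by the median ratio or quantile normalization, or with day as a covariate. The hour of dissection is not given in the sources used here. None of 34 collagen and matrix genes, 15 proliferation genes or 22 interferon and antigen genes was called by limma. In these lists 2, 6 and 1 genes had an unadjusted p under 0.05, beside 3124 of all 11047 genes. Among the proliferation genes, Rrm2 had the smallest p (0.586 to 0.806 and 1.29 to 2.09 FPKM, adjusted p = 0.0544).

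Of the markers of other cell types, 1 was called over both days together. In bulk tissue, fewer cells of a type and less of its RNA per cell cannot be told apart. Of 20 endothelial markers 1 (5%, against 5.5% of all genes) was called, the receptor gene Tek, at 10.6, 9.55 and 7.53 FPKM in the controls, 4.87 and 5.93 at day 7 of follistatin and 4.78 and 3.196 at day 14. Tek fell by 0.85 on the log2 scale (SE 0.18, adjusted p = 0.041). Of the 20, 16 had an unadjusted p under 0.05, all lower, beside 3124 of all 11047 genes with such a p in either direction. The smooth muscle and pericyte list had a median of -0.69 over 13 tested, none called by limma, and 8 with an unadjusted p under 0.05. Of 7 tested Schwann cell and nerve markers all lay below 0, with a median of -0.19 at day 7 and -1.47 at day 14, where 3 were called lower (all genes at day 14: 0.281%).

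The myelin gene Mbp lay at 7.16 and 6.26 FPKM in the day 7 controls, 16.8 in the day 14 control, 4.37 and 3.802 in the day 7 follistatin libraries and 2.23 and 2.63 in those of day 14. The day 14 control was the highest of all, and with 1 control of that day its level cannot be set against a spread. The summed Schwann and nerve markers were 51.0 to 106 FPKM in controls and 26.2 to 45.7 FPKM with follistatin. All 13 macrophage markers lay above 0 and none was called by limma, with 0 at an unadjusted p under 0.05; follistatin day 14 replicate 2 held the highest sum, 266 FPKM, and control day 7 replicate 2 the next, 141 FPKM. Of 3 tested neutrophil markers none was called or had an unadjusted p under 0.05, Ly6g was listed at 0 in all 7 libraries, and no T or NK cell marker had a mean of 1 FPKM.

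**Figure D5:**
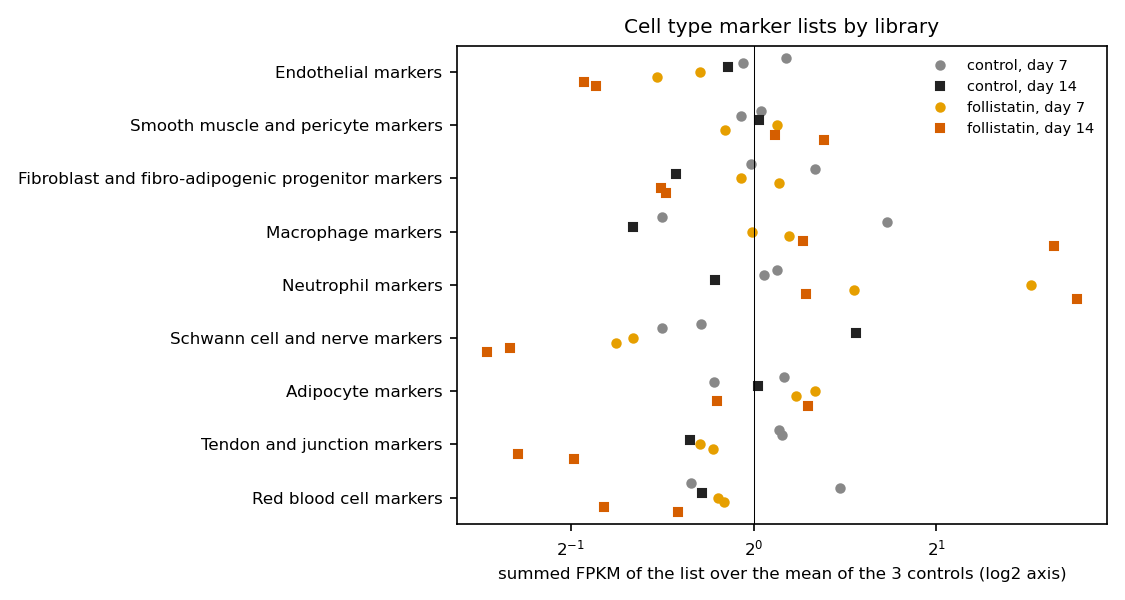
Summed FPKM of each marker list in each library, divided by the mean of the 3 controls (log2 axis), 1 point per library. Endothelial sums lie below all controls in the 4 follistatin libraries, Schwann cell sums are lowest in the follistatin libraries of day 14 and highest in the day 14 control, and the smooth muscle sum is mostly Des, which muscle fibres make too.

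The effect at day 14 was set against that at day 7 by their difference in the fit of 4 groups. Of 11047 genes, 34 (0.308%) were called, 5 with a higher (0.0453%) and 29 with a lower effect at day 14 (0.263%), and all 34 were small RNA or predicted genes. Of the 34, 33 were listed at 0 in every library of 3 of the 4 groups. Such genes reached the mean of 1 FPKM only through the group where they were high and their zeros give no spread, so their calls are a description and no test. Gm25500 was listed at 0 in 5 libraries and at 106 and 72.1 FPKM in the follistatin libraries of day 14. Without the small RNA genes 1 gene was called, and with a mean of at least 5 FPKM none was called by limma. The differences of Fst (1.78, adjusted p = 0.153), Mbp (-1.77, adjusted p = 0.113), Serpinb1a (1.71, adjusted p = 1.00) and Manf (1.35, adjusted p = 0.836) did not pass.

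The effect of days 7 and 14 together was also set against the effect at day 3, from 3 control and 4 follistatin libraries, over 11646 genes. Of these 10 (0.0859%) were called, 7 with a higher (0.0601%) and 3 with a lower effect at the later days (0.0258%). Fst was 1 of them, and Mir8102, a microRNA gene, was listed at 0 outside the 4 follistatin libraries of days 7 and 14, so that its call likewise is no test. The others with a higher effect were Adora1 (difference of 2.04, adjusted p = 0.0339), Gamt (1.46, adjusted p = 0.0339), Tceal5 (1.35, adjusted p = 0.0339), Tubb4b (1.27, adjusted p = 0.00899) and Tuba4a (1.13, adjusted p = 0.0397). At day 3 the log2 fold changes of Tubb4b and Tuba4a were 0.05 and 0.03. The 3 genes with a lower effect were the phosphatase gene Nudt4 (-0.84), the protease inhibitor gene Serpine2 (-0.79) and the zinc finger gene Zfp180 (-0.70), named because the count was small. When 1 library was left out the count ranged from 2 to 28, and 6 were called after rescaling by the median ratio. Libraries of day 3 had a relative depth of 0.395 to 0.707, below that of days 7 and 14.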

How the data were processed

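Libraries were made with the Illumina TruSeq RNA kit from frozen muscle, per the labels' protocols. Reads were aligned with TopHat to mm10 and tested with Cuffdiff, per the submitters' processing notes, and versions and strand setting are not given in the sources used here. The authors deposited FPKM per gene and library, scaled by them, with no read counts. Their deposited table for days 7 and 14 gives a log2 fold change, a test score, a p-value and a q-value per gene, with q under 0.05 as its call here. FPKM hides depth, so relative depth was read from the steps of low values, and the precision of low genes is unknown.

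Of 24386 listed genes, 27 whose symbols had become dates were left out. Genes whose mean over the 7 libraries reached 1 FPKM were tested as log2(FPKM + 1) with limma 3.58.1 in R 4.3.3 (lmFit, eBayes with trend, two-sided, Benjamini-Hochberg adjusted p under 0.05 over all genes). Day effects came from a fit of 4 groups, in which the single day 14 control is assumed to vary like the other groups. A log2 fold change on this scale understates that of low genes. Simulated data held 200 changed genes among 10873. There the fit over both days recovered 87% of changes of 1 and 98% of changes of 2 (log2), with 7.5% of calls false. The day 7 effect recovered 46% of changes of 1 and 96% of changes of 2, with 10.1% of calls false. The day 14 effect recovered 13% and 94%. These rates describe the simulated data only and are no error rates of the calls reported here. The number of those calls over both days ranged from 43 to 907 when 1 library was left out.

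The members and the 48 gene lists were chosen with earlier results of these data known. Named genes were Fst, Mstn, Igf1, Asb2, Fbxo32 and Trim63, the 12 largest called rises and falls without overlap (predicted and small RNA genes left out), up to 3 called members of each list by p (or the 1 with the smallest p), and the 5 largest called differences between days and from day 3. Cuffdiff's HIDATA genes and list members that did not pass, such as Smad2, Xbp1 or Bag3, were given outside that rule, after their values were seen. Positions and exon overlaps are from GENCODE M21 and promoters from RefSeq. Alternatives were another pseudocount, filters, scalings, robust moderation, day or replicate number as a term, other sets of libraries or genes and each library left out. Fits without small RNA genes, other than that over both days on the deposited scale, were added after seeing the data. One list member is not reported here.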

Additional observations from a re-analysis of the deposited data

Results flagged for a closer look

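In 5 of 106 genes searched, 1 of the 4 follistatin libraries of days 7 and 14 stood far from the other 3 by Dixon's gap over range, and chance gives about 1 in 20. The gap over range was 0.866 for Klhl38 (follistatin day 14 replicate 2 the lowest), 0.915 for Bysl (follistatin day 7 replicate 1 the highest), 0.936 for Azin1 (follistatin day 7 replicate 1 the lowest), 0.907 for the protease gene Mmp9 (follistatin day 7 replicate 1 the highest, at 6.58 FPKM against 1.37, 1.10 and 0.836) and 0.907 for Mir130c (follistatin day 14 replicate 1 the highest).

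The effect at day 14 minus that at day 7 was called for Gm25500 (6.47), Mir130c (7.86), Mir1892 (-6.75), Mir5112 (-6.19) and Mir6384 (-6.12), the 5 largest by value on the log2 scale. For all of these but Mir130c, 3 of the 4 groups were listed at 0 in every library, so these values are a description and no test. Mir5112 and Mir6384 were listed at 0 in every library but the day 14 control, which held 71.9 and 68.4 FPKM. Among the 7 libraries of these days, Mir1892 was listed at 0 except in the day 7 follistatin libraries, at 163 and 69.4 FPKM. Mir130c was listed at 0 in the day 14 control and at 296 and 132 FPKM in the day 7 controls.

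The effect of days 7 and 14 together minus that of day 3 was called for Fst (3.77), Mir8102 (2.88), Adora1 (2.04), Gamt (1.46), Tceal5 (1.35), Tubb4b (1.27) and Tuba4a (1.13). Mir8102 lay at 4.76 to 9.78 FPKM in the 4 follistatin libraries of days 7 and 14 and was listed at 0 in the other 10 libraries, so its value too is a description and no test.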

How the results depend on the processing

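Over both days together, 608 genes were called, and 88 of 979 tested list members. The count of genes and of list members was 284 and 49 with no filter, 30 and 8 with the day 7 libraries alone, 2098 and 248 with all 14 libraries in 1 fit, and 963 and 136 without small RNA genes. It ranged from 43 to 907 and from 11 to 134 when 1 library was left out. The 24 calls at day 7 became 15 with no filter and 72 without small RNA genes (9 to 59 with 1 library left out). The 56 at day 14 became 32 at a mean of at least 5 FPKM and 120 without small RNA genes (36 to 90). The 34 differences between days became 10 with log2(FPKM + 0.1), 0 at a mean of at least 5 FPKM and 1 without small RNA genes (48 to 77). The 10 differences from day 3 became 2 with no filter and 6 after rescaling by the median ratio (2 to 28). Without control day 14 replicate 1, the day 14 effect and the difference between days could not be fitted. The authors' deposited table held 1250 calls at a q-value under 0.01. The Fst log2 fold change of 8.51 ranged from 8.19 to 8.84 with 1 library left out. The cause of these changes was not tested.

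With day and replicate number as a block, which leaves out follistatin day 14 replicate 2, 164 genes and 38 list members were called. The labels do not say whether same-numbered libraries of the 2 arms are paired. The deviations of same-numbered day 7 libraries correlated at 0.0143, and 4 of 6 libraries correlated best with their own number. With so few libraries these values cannot settle whether there is a pairing. Of the 82 called genes named by rule, 34 were not called with the block (adjusted p = 0.0521 to 0.129), 28 not with no filter and 69 not with day 7 alone. With day as a covariate 8 of the 82 were not called (adjusted p = 0.0501 to 0.0656), among them Azin1, Eif5a, Myom3, Nedd9 and Epm2a. None of the 82 changed direction under any alternative.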
